A study of Rattus norvegicus with 2 samples.

Results

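Genes of homologous recombination, the Fanconi anaemia pathway and the DNA damage checkpoint were examined in the remnant liver of rats after partial hepatectomy (PH), an operation that takes out some of the organ. The members are a fixed list of 45 genes, matched by gene symbol, and 34 of them had a named probe set among the 14217 named genes of the arrays. The other members, Rad51d, Rad54b, Brip1, Fancf, Fancg, Fanci, Fancm, Rmi2, Eme1, Atm and Rad9a, were not analysed here. Where a gene had several probe sets, the brightest on average stood for it. Rats had 1/3PH or 2/3PH, after the fraction of liver taken, and both groups were sampled at 24 h. Per the series' design text, RNA from 3 rats was pooled per group before hybridisation to 1 array, so 6 rats gave 2 measurements. That text describes 2/3PH as followed by robust DNA replication and 1/3PH by a minimal response, and the comparison asks which transcripts differ between them. The labels give no strain, sex or age, and unoperated liver was not analysed here.

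With 1 array per group, no difference had a replicate error and no test was possible. The precision is limited by the number of arrays. "Higher" and "lower" describe 2/3PH set against 1/3PH. Values are MAS 5.0 signals, in arbitrary units, and a level can be compared between arrays for 1 probe set but not between probe sets. A floor of 89.2 units, the median over all probe sets that are not controls, separated brighter from dimmer probe sets. A gene counted as above the floor by its mean over both arrays. Where the 1/3PH signal of a higher gene lay under the floor, the fold is given as "at least", with the floor in place of that signal. The SD of log2 ratios between probe sets of the same gene, all above the floor, was 0.32 over 2067 genes. It was 0.35 over the 1528 genes whose dimmest such probe set lay under the 75th percentile of all probe sets. This SD describes disagreement between probe sets within these arrays, which need not be error alone. It holds nothing of the spread between animals or of probe sets below the floor. In bulk tissue, more cells expressing a gene and more of its RNA per cell cannot be told apart.

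Homologous recombination repairs broken or stalled DNA by copying an intact sister molecule, so it works mainly in S and G2 phase. A broken end is first trimmed to a single strand, that strand is then prepared by Brca2 to pair with the intact copy, and joined molecules are finally separated. The Fanconi pathway uses the same machinery at crosslinks between DNA strands, where a core complex attaches ubiquitin to Fancd2 and Fanci. The checkpoint kinases Atm and Atr sense breaks and single-stranded DNA and hold the cell cycle through Chek2 and Chek1. Hepatocytes of an adult liver rarely divide, and loss of liver mass brings many of them into the cell cycle.

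Roughly as many of the measured members were at least 2-fold higher as were not, and no member was 2-fold lower. Of the 34 members, 32 had ratios above 0 and 18 were at least 2-fold higher by their measured signals, where 11.7% of all 14217 genes were. With the floor in place of dimmer signals, 16 of the 34 were. None was 2-fold lower, where 8.53% of all genes were. The floor left 29 members, and 16 of them were 2-fold higher or more and 0 lower, beside 6.12% and 3.68% of 9514 genes. Among the 29, 6 were above the floor through the 2/3PH signal, since their 1/3PH signal lay under it. One of these was Fanca, which with the floor in place of that signal was under 2-fold, and the count above the floor was then 15. Among the 23 with both signals at or over the floor, 10 were at least 2-fold higher, beside 5.34% of 9141 genes. The median log2 ratio of the 29 was 1.16, and that of all genes above the floor was 0.03. With signals under the floor set to it, these medians were 1.04 and 0.03.

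**Figure D1:**
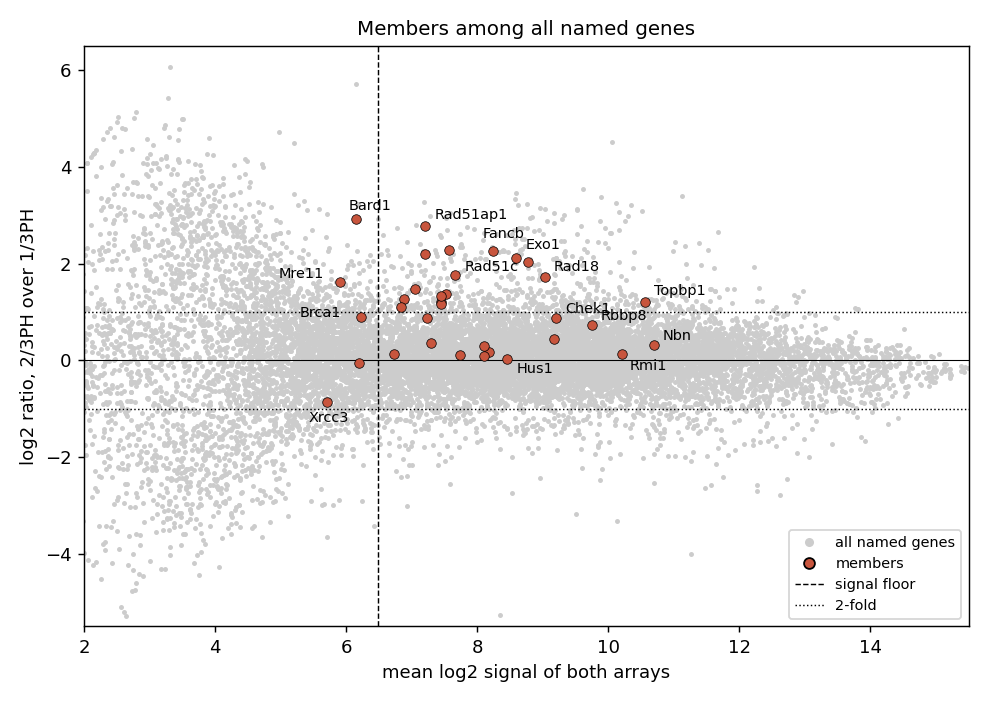
The log2 ratio of 2/3PH over 1/3PH (vertical axis) is plotted against the mean log2 signal of both arrays (horizontal axis) for all named genes (grey) and the 34 members (red), with some names; genes with a mean under 2 are not drawn. The dashed line is the signal floor and the dotted lines mark 2-fold; 32 members lie above 0, and genes scatter more widely to the left of the floor.

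Dim genes scattered more, and most members were dim. Of the 29, 22 had a mean signal between the floor and the 75th percentile of all probe sets, 448 units, and 14 of these were at least 2-fold higher. In that band 7.85% of 3785 genes were 2-fold higher. At or over the 75th percentile lay 7 members, of which Topbp1 and Rad18 were 2-fold higher, beside 4.97% of 5729 genes. Most members had 1 probe set, so their ratios had no second reading. Of the 16 members counted as 2-fold higher above the floor, Topbp1 alone had a second probe set.

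The promoters of the 6 members with the highest ratios among those holding letters of an E2F site are shown, because E2F factors are known to drive S phase genes. The letters searched were TTTGGCGC, TTTCGCGC, TTTCCCGC and TTTGCCGC on both strands, in the 300 bases from 250 before to 50 after each annotated start in RefSeq (build GRCr8). Capitals mark the matching letters. For Bard1, Topbp1 and Chek1 the 250 bases before the start are given, and for Fancd2, Clspn and Fancl, whose match lies after the start, 30 bases around it. Their log2 ratios by measured signals were 2.93 for Bard1 (1.13 with signals under the floor set to it), 2.29 for Fancd2, 1.34 for Clspn, 1.21 for Topbp1, 0.87 for Chek1 and 0.17 for Fancl. The regions are chr9:80143756-80144005, minus strand, for Bard1, chr4:148234706-148234735, plus strand, for Fancd2, chr5:144134647-144134676, plus strand, for Clspn, chr8:112766541-112766790, plus strand, for Topbp1, chr8:44629844-44630093, minus strand, for Chek1, and chr14:104451007-104451036, plus strand, for Fancl.
Bard1: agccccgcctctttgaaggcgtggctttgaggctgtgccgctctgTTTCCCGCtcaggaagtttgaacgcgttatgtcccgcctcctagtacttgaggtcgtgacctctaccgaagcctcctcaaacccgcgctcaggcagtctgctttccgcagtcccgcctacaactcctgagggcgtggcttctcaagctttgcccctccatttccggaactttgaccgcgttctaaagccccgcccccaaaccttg
Fancd2: gcgtccgacaaGCGGGAAAgtcgaaaacga
Clspn: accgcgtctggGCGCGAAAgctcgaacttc
Topbp1: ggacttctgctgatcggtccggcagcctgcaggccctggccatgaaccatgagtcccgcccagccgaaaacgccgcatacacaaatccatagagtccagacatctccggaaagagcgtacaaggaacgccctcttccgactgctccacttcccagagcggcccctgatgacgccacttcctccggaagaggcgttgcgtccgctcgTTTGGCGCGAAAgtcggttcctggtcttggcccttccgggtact
Chek1: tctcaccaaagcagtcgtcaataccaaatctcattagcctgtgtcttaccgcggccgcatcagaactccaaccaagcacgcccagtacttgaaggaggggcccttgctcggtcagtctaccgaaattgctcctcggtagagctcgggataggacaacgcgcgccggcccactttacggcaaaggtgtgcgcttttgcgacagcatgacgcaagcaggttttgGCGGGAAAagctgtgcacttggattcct
Fancl: aacctgttgcgccaTTTCCCGCtgctgctt

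The table of promoters held an entry for 39 of the 45 members. E2F letters were found for 9 of these 39 (23.1%), of which 2 had no probe set. Counted alike, by gene, the share was 4.51% of 8018 genes above the signal floor and 2.37% of all 27457 genes. Counted by promoter it was 2.14% of 33469. Among members that were at least 2-fold higher by measured signals, 4 of 15 held them, and among the other measured members 3 of 15 did. The latter were Chek1, Fancl and Fancc, of which the last pair had ratios near 0. This grouping did not use the floor, so the higher group held Bard1 and Mre11, whose means lay below it. With the floor in place of the 1/3PH signal, Mre11 was at least 1.17-fold and Fanca, also in that group, at least 1.87-fold higher. In Topbp1, 2 matches on opposite strands overlap in the same 12 letters. The NF-Y letters CCAAT were found, on either strand, for 9 of 15 of the 2-fold higher members and for 4 of 15 of the other measured members. Of all genes 39.6% held them, and of the genes above the floor 39.8%. The letters TTTGAA, of the cell cycle element known as CHR, were found for 3 of 15 in both groups, for 19.4% of all 27457 genes and for 12.5% of genes above the floor. A match here is letters in a window, and Topbp1 had 3 annotated starts, which gives it more windows than most members.

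**Figure D2:**
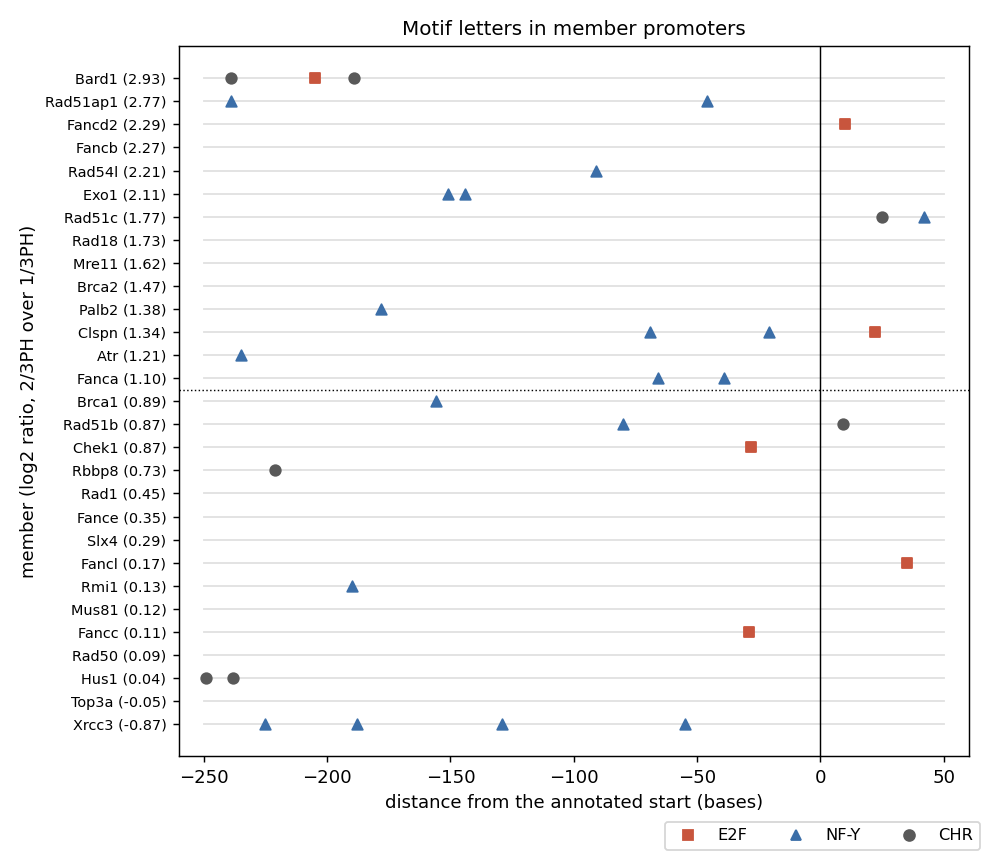
Positions of the E2F (squares), NF-Y (triangles) and CHR (circles) letters are plotted by distance from the annotated start, in bases, for the 29 measured members with 1 promoter in the table. Members are ordered by log2 ratio, given in brackets. The dotted line separates the 14 that were at least 2-fold higher by measured signals, without the floor. Squares and triangles occur on both sides of it.

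Of the measured checkpoint members, Clspn, Topbp1, Atr and Chek2 were more than 2-fold higher, and Chek1, Rad1 and Hus1 were not. Clspn (claspin), the adaptor that brings Chek1 to Atr, had a signal of 110 units after 1/3PH and 277 after 2/3PH, 2.53-fold higher. Topbp1, which switches Atr on, had signals of 998 and 2302, 2.31-fold higher. Its second probe set had signals of 60.8 and 169, the first of them under the floor. The kinase Atr had signals of 115 and 266, 2.31-fold higher. Both probe sets of Topbp1 were brighter after 2/3PH, and Clspn and Atr had 1 probe set each.

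The effector kinases lay on either side of 2-fold. Chek2, which acts after Atm, had signals of 117 and 261, 2.24-fold higher. Chek1, which acts after Atr, had signals of 439 and 799, 1.82-fold higher. Their log2 ratios, 1.16 and 0.87, differed by less than the SD between probe sets of a gene. The clamp that marks damaged DNA is a ring of Rad9a, Rad1 and Hus1. Rad1 had signals of 495 and 676, 1.37-fold higher, and Hus1 had 348 and 357, a ratio of 0.04 on the log2 scale. The second probe set of Hus1 had a log2 ratio of 0.39. The 7 checkpoint members had a median log2 ratio of 1.16, and 4 passed 2-fold.

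**Figure D3:**
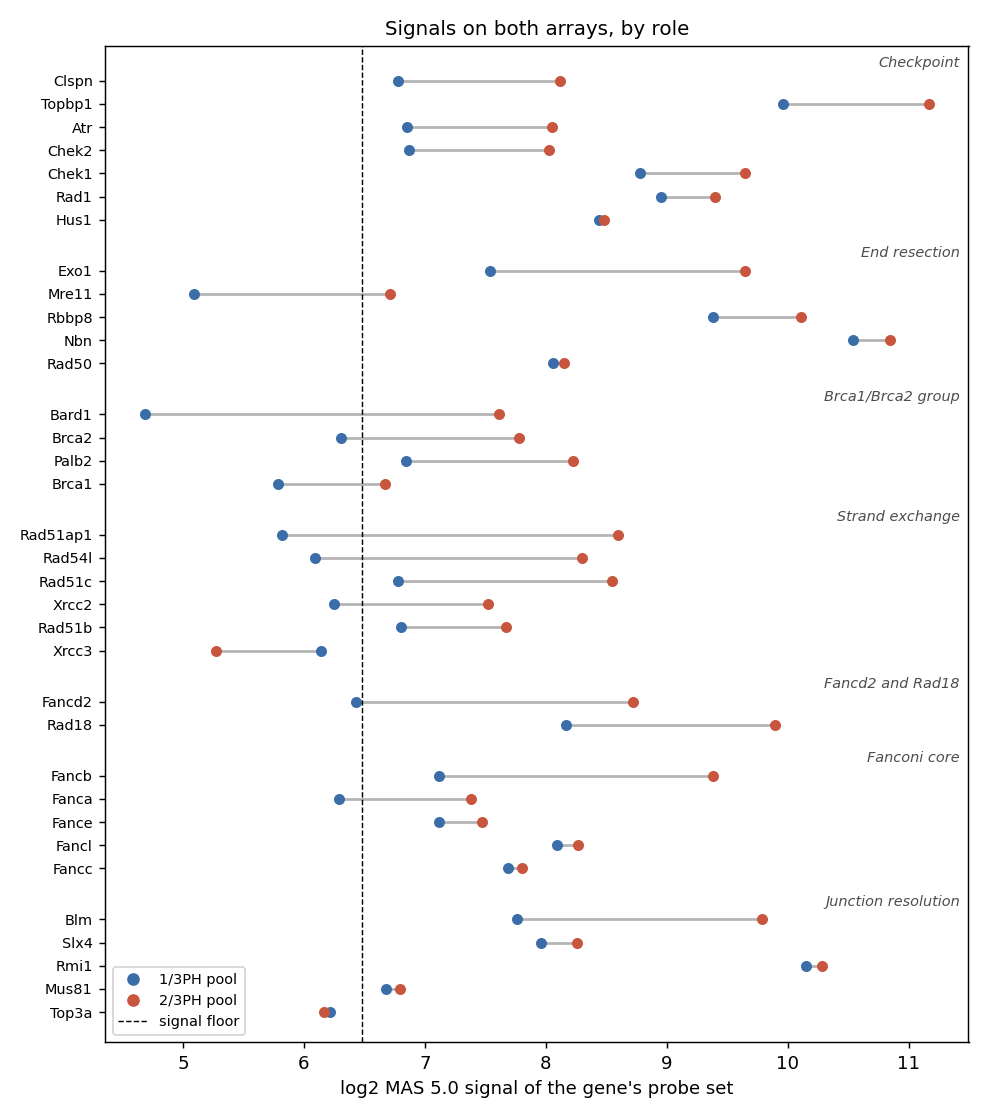
The log2 signal of each member on the 1/3PH array (blue) and the 2/3PH array (red) is joined by a line, with members grouped by role and ordered by ratio within a group. The dashed line is the signal floor; Xrcc3 and Top3a lie under it on both arrays, and Hus1, Rad50 and Fancc have the shortest lines among members above it.

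Of the genes that trim broken ends, the exonuclease Exo1 had a larger ratio than Rbbp8, Rad50 and Nbn, and Mre11 was too dim to place. Exo1, which lengthens the single strand, had signals of 186 and 802, 4.31-fold higher. Rbbp8 (CtIP), which starts trimming together with the complex of Mre11, Rad50 and Nbn, had signals of 667 and 1106, 1.66-fold higher.

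Within that complex, Nbn, the adaptor that recruits Atm, had signals of 1484 and 1843, 1.24-fold higher. Rad50, its ATPase, had signals of 267 and 284, a log2 ratio of 0.09, and its second probe set above the floor had one of -0.13. Mre11, its nuclease, had signals of 34.1 and 104.8, so its mean lay below the floor and it was at least 1.17-fold higher. The log2 ratio of Mre11 was 1.62 by measured signals and 0.23 with signals under the floor set to it. The latter is a lower bound, so whether Mre11 moved with Rad50 and Nbn cannot be read. Exo1 was the 1 gene past 2-fold of the 4 above the floor, whose median log2 ratio was 0.52.

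Brca2 and Palb2 were both higher, and Brca1 and its partner were dim. Brca2, which prepares the single strand for pairing, had signals of 79.2 and 220, at least 2.46-fold higher. Palb2, which links Brca2 to Brca1, had signals of 115 and 298, 2.60-fold higher. Bard1, the partner of Brca1 in a ubiquitin ligase, had signals of 25.7 and 195, at least 2.19-fold higher. Brca1 itself had signals of 55.1 and 102, at least 1.14-fold higher, with a log2 ratio of 0.89. All 4 genes were brighter on the 2/3PH array, and 3 of them had a 1/3PH signal under the floor.

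Among genes of strand exchange, Rad51ap1, Rad54l and Rad51c were at least 3-fold higher, and of these Rad51c alone had both signals over the floor. Rad51ap1, which helps DNA strands pair, had signals of 56.6 and 387, at least 4.34-fold higher. With signals under the floor set to it, its log2 ratio was 2.12. Rad54l, a motor that remodels DNA during strand exchange, had signals of 68.4 and 316, at least 3.54-fold higher.

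The measured members of the family of Rad51b, Rad51c, Xrcc2 and Xrcc3 differed among themselves. Rad51c had signals of 110 and 374, 3.40-fold higher. Xrcc2 had signals of 75.9 and 184, at least 2.06-fold higher. Rad51b had signals of 112 and 203, 1.82-fold higher. These genes code for partners in a single complex, and Rad51c, which is also in a complex with Xrcc3, was the highest. Xrcc3 had signals of 70.7 and 38.6, both under the floor, so its order is not read. The 5 genes above the floor had a median log2 ratio of 1.77, and 4 of them passed 2-fold. Of these, Rad51ap1, Rad54l and Xrcc2 were above the floor through the 2/3PH signal, which favours high ratios. Without the floor, the median of the 6 measured genes, Xrcc3 included, was 1.52.

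In the Fanconi pathway, the ubiquitin target and part of the core complex were higher. Fancd2, which carries the ubiquitin mark, had signals of 86.2 and 422, at least 4.73-fold higher. The core subunit Fancb had signals of 138 and 666, 4.81-fold higher. Fanca, another core subunit, had signals of 78.0 and 167, at least 1.87-fold higher, and its log2 ratio was 1.10.

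Of the remaining measured core subunits, Fancl and Fancc were close to equal on both arrays and Fance was slightly higher. Fance, which binds Fancd2, had signals of 139 and 177, 1.27-fold higher. Fancl, the ubiquitin ligase subunit, had signals of 273 and 307, 1.13-fold higher. Fancc had signals of 206 and 223, 1.08-fold higher, and its other probe sets lay below the floor. The 5 measured core subunits therefore ranged in log2 ratio from 0.11 for Fancc to 2.27 for Fancb, with a median of 0.35. Rad18, a ligase that puts ubiquitin on the polymerase clamp at stalled forks, had signals of 287 and 949, 3.31-fold higher.

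Among genes that separate joined DNA molecules, the helicase Blm was the exception. Blm had signals of 216 and 884, 4.09-fold higher. Its partner Rmi1 had signals of 1134 and 1241, 1.09-fold higher. The topoisomerase of that complex, Top3a, had signals of 74.3 and 71.8, both under the floor. The nuclease Mus81 had signals of 102 and 111, 1.09-fold higher, and the nuclease scaffold Slx4 had 249 and 305, 1.23-fold higher. The 4 genes above the floor had a median log2 ratio of 0.21, and Blm alone passed 2-fold.

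Ratios thus differed between subunits of the Fanconi core and between Blm and its partner Rmi1. Within 1 SD between probe sets, 0.32 on the log2 scale, of a ratio of 0 lay 9 of the 34 members, and 24 lay more than that above 0 by their measured signals. The SD holds nothing of probe sets below the floor, where Top3a of the 9 and Brca1, Bard1 and Mre11 of the 24 lay. With signals under the floor set to it, Brca1 and Mre11 had log2 ratios of 0.19 and 0.23. With the floor in place of dimmer 1/3PH signals, Rad51ap1, Fancd2, Fancb, Exo1 and Blm were at least 4-fold higher. The 9 members closest to 0 were Hus1, Top3a, Rad50, Fancc, Mus81, Rmi1, Fancl, Slx4 and Nbn. The differences between roles had no test, because each rests on the same 2 arrays.

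Other genes of the same pathways showed a smaller median. Of 63 listed genes, 58 had a named probe set and 50 were above the floor, and 13 of these passed 2-fold upward and 0 downward. Their median log2 ratio was 0.61. The largest was Ube2t, which passes ubiquitin to Fancd2, with signals of 152 and 733, 4.82-fold higher. Mcm8, a helicase of recombination, was 4.25-fold higher, the helicase Recql4 at least 2.29-fold and the checkpoint mediator Mdc1 3.78-fold. Mnd1, which helps strand exchange in meiosis, was 3.20-fold higher and Parpbp 3.14-fold. Some core complex partners, named after their values were seen, were nearer to 1. Faap20 was 2.01-fold higher, Faap24 at least 1.58-fold and Faap100 at least 1.30-fold. Usp1, which removes ubiquitin from Fancd2, was 1.98-fold higher. Also named after their values were seen, Etaa1, which like Topbp1 activates Atr, was 1.28-fold higher, and Atrip, the partner of Atr, had signals of 67.0 and 82.5, both under the floor.

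Repair genes outside recombination had lower ratios, and replication and mitosis genes had higher ones. Of 42 genes of mismatch, excision and end-joining repair above the floor, 0 were 2-fold higher or lower, and the median log2 ratio was 0.26. The largest were the abasic site nuclease Apex1 at 0.95, the end-joining factors Nhej1 at 0.93 and Xrcc5 (Ku80) at 0.89, Nthl1 at 0.84, Polb at 0.83 and Msh6 at 0.79. The 6 subunits of the MCM replicative helicase were all higher, with 3.02-fold for Mcm2, 5.56-fold for Mcm3, 2.63-fold for Mcm4, 3.09-fold for Mcm5, 4.87-fold for Mcm6 and 3.90-fold for Mcm7. Their median log2 ratio was 1.79. Of 12 mitotic genes, 11 were above the floor and all 11 passed 2-fold. Their median was 2.99, led by Aurkb at 3.24, Ttk at 3.21, Cdc20 at 3.14, Cdk1 at 3.07, Ccnb1 at 3.01 and Top2a at 2.99. The members' median of 1.16, or 1.04 with signals under the floor set to it, lay between those of the other repair genes and the MCM subunits. For 6 of the 29 members only the 2/3PH signal reached the floor, which favours high ratios. The differences between lists had no test.

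**Figure D4:**
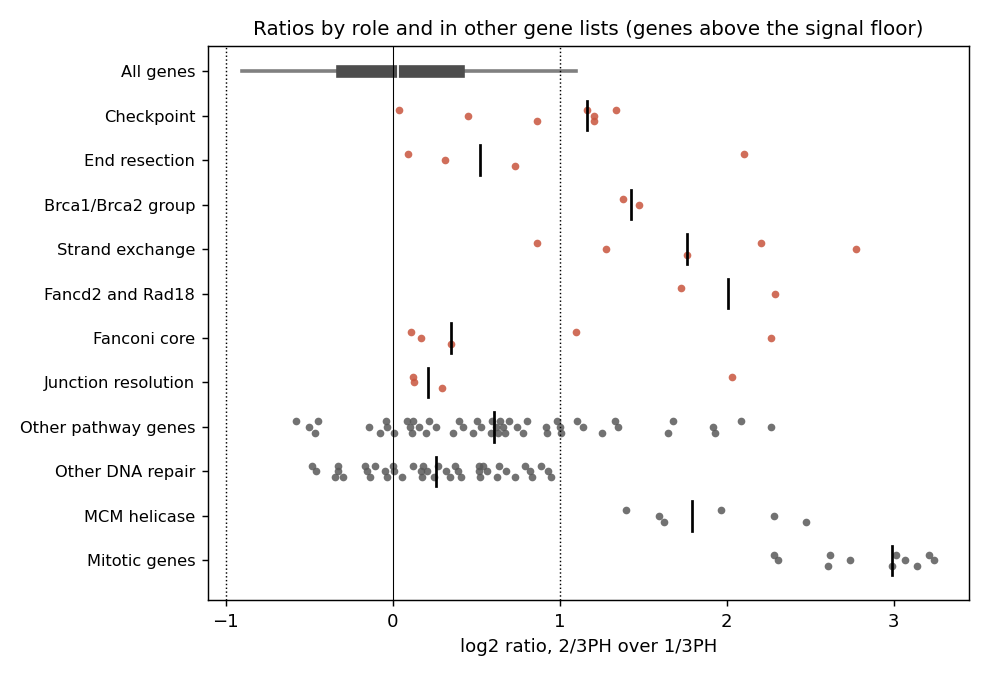
Each point is the log2 ratio of 2/3PH over 1/3PH of a gene above the floor, with members by role in red and other lists in grey, and the black bar is the median of the row. The top row gives all genes above the floor, with the 25th to 75th percentiles as a thick line and the 5th to 95th as a thin one; points of end resection, Fanconi core and junction resolution spread from near 0 to above 2.

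No marker of hepatocytes or other liver cells that lay above the floor was 2-fold higher with the members. All 8 hepatocyte markers, such as Alb at 34570 and 29468 units, were bright and lower by less than 2-fold, and their summed signals were 206181 after 1/3PH and 174065 after 2/3PH. All 6 measured macrophage markers of 8 listed were lower, with sums of 8961 and 6652 and a median log2 ratio of -0.64. The 4 measured endothelial markers of 6 had sums of 10174 and 6370, with Kdr 2.11-fold lower. The 6 stellate markers had sums of 3209 and 1875, with Lrat 2.46-fold, Col1a1 2.05-fold and Dcn 1.65-fold lower. The other 3 were higher, with log2 ratios of 0.43 for Pdgfrb, 0.20 for Des and 0.70 for Acta2, which lay below the floor. All 7 measured lymphocyte markers of 8 lay below the floor on average, with sums of 321 and 259. The 4 measured erythroid markers of 5 were all lower, with sums of 24664 and 12450 that were mostly Hbb. The 4 measured cholangiocyte markers of 5 had sums of 1240 and 1292, mostly Epcam at 777 and 912. Their directions were mixed, with log2 ratios of 0.23 for Epcam, 0.53 for Krt19, -0.65 for Spp1 and -0.99 for Krt7, which lay below the floor. No measured marker was listed at 0, and the part of these shifts in the members' ratios was not tested. For RNA quality, the Gapdh control probes had a log2 difference between the 3' and 5' ends of 0.66 after 1/3PH and 0.36 after 2/3PH, and the beta-actin probes 2.74 and 2.91. Their part was not tested either.

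The added control RNAs were dimmer on the 2/3PH array, so scaling to them raised every ratio. The median log2 ratio was -0.24 over 18 hybridisation controls and -0.44 over 24 poly-A controls. With the former as reference, the median of all genes was 0.27 and 18 members were at least 2-fold higher. With the latter it was 0.48, and 19 members were. Such a scaling adds 1 constant to every log2 ratio. The gap between the median of the members and that of all genes, 1.13, was therefore bound to stay as on the deposited scale. Over all genes the 582 higher and 350 lower calls became 973 and 210, or 1599 and 123. Of the 18 members past 2-fold without the floor, 11 stayed so on every scale, probe set rule and signal rule tried, the floors aside. These were Bard1, Rad51ap1, Rad54l, Rad51c, Palb2, Fancb, Fancd2, Blm, Exo1, Rad18 and Topbp1. The control scalings could not take a higher member under 2-fold. Of the 11, Bard1 had a mean below the floor, and Rad18 and Topbp1 alone had means over the 75th percentile of all probe sets.

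**Figure D5:**
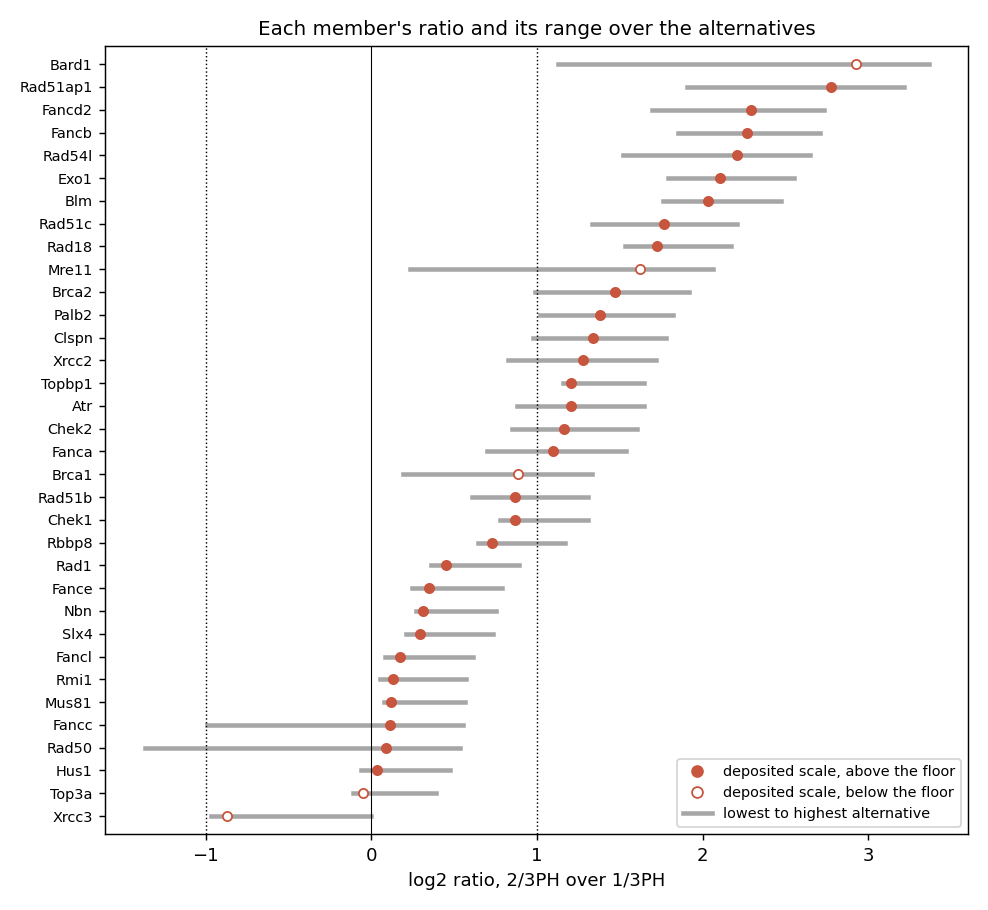
Each point is a member's log2 ratio of 2/3PH over 1/3PH on the deposited scale, filled for members above the floor and open for those below it, and the grey bar runs from the lowest to the highest value over the alternative scales and signal rules. Dotted lines mark 2-fold; Bard1, Mre11 and Brca1 reach their lowest value with signals under the floor set to it, and Fancc and Rad50 with the mean over probe sets.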

How the data were processed

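Each of 2 arrays measured RNA pooled from 3 rats. Per the labels' protocols, biotin-labelled cRNA from an Affymetrix IVT Express kit was scanned with Command Console 3.1 and summarised by MAS 5.0 in Gene Spring 11.0. The deposited values are log2 signals. Read as powers of 2, their mean without the top and bottom 2% was 500.3 and 500.2, so a total change in RNA cannot be read. Neither the scaling target nor any detection call is given in the sources used here.

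Control probe sets aside, 20826 of 31042 had 1 symbol in the platform annotation, 436 had several (left unnamed) and 9780 had none. Symbols were updated through Entrez identifiers to RefSeq (GRCr8). Members and lists were chosen with earlier results of these data known. Every measured member was named, with up to 6 genes of each other list by absolute ratio and all MCM subunits. Any marker gene could be named. Outside this rule, Faap20, Faap24, Faap100, Usp1, Etaa1 and Atrip of the pathway list were named too. A gene listed under 2 symbols, Nthl1, was counted once, and 1 listed item is not reported here. The quantity was the log2 ratio, 2/3PH minus 1/3PH, called at 2-fold. Alternatives were median centring, quantile normalization, loess (fraction 0.3), both control scalings, other floors, 64 added units, other probe set rules and limits of 1.5-fold and 3-fold. Setting signals under the floor to it was added after the data were seen. The counting was tested on simulated data. Promoter orientation was checked by TATAAA, found 26 to 45 bases before the start in 253 plus and 234 minus strand promoters, against 90 and 111 for its reverse. Python 3.11.15, pandas 2.3.3 and statsmodels 0.14.6 were used.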

Additional observations from a re-analysis of the deposited data

How the results depend on the processing

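The count of 16 members above the floor that were at least 2-fold higher was 16 to 19 under the scaling, probe set and no-floor alternatives. It was 19 with a limit of 1.5-fold and 15 with signals under the floor set to it. The share of all genes called higher changed as well, as given below. In each alternative, 0 of the members above the floor were 2-fold lower. The count was 10 with 64 units added, which shrinks ratios of dim genes, and the median log2 ratio was then 0.82. With the floor at the 75th percentile 7 members were left, of which 2 were higher, with a median of 0.73. A limit of 3-fold left 8. Poly-A scaling raised the median to 1.60. Over all genes the higher calls were 582 (6.12%) on the deposited scale, 420 (4.41%) with 64 units, 285 (4.97%) with the high floor and 213 (2.24%) at 3-fold. They were 973 (10.2%) and 1599 (16.8%) under the control scalings, 1504 (15.8%) at 1.5-fold and 1662 (11.7%) without a floor. With signals under the floor set to it they were 551 (5.79%). These shares are of 9514 genes, but of 5729 with the high floor and of 14217 without a floor. The ratios of Fancc, Rad50, Hus1 and Top3a changed sign in some alternatives, and none of these was past 2-fold on the deposited scale. With the mean over probe sets, Fancc stood at -0.99 and Rad50 at -1.37, which is over 2-fold lower, but the mean signal of Rad50 then lay below the floor, so it was not counted. No paired analysis was possible because each group had 1 array, and no array could be left out.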

Other observations

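Further probe sets of 3 members lay below the floor. For Rad50 this one had signals of 36.7 and 2.20 units, and for Fancc a pair had 80.1 and 54.3 and 42.3 and 7.34 units. All these were lower on the 2/3PH array, whereas the brightest probe set of each gene was close to equal on both. The dim probe set of Slx4 had signals of 7.86 and 10.6 units.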
